A study of Mus musculus with 12 samples.

Results

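The genes described here are p53 (Trp53), its 2 main inhibitors (Mdm2 and Mdm4) and 7 of its target genes in apoptosis and stress (Bax, Bbc3, Pmaip1, Ccng1, Sesn2, Trp53inp1 and Gadd45a). They were chosen by name, as 10 of the 14143 genes of the deposited expression table, and all 10 had a row. RNA was sequenced from hematopoietic stem cells (HSCs), self-renewing bone marrow cells from which all blood lineages arise, of female C57BL/6J mice. Cells were sorted as negative for mature lineage markers, positive for Sca-1 and c-kit, and negative for CD48 and CD135, and were then divided by CD150. The groups were old Ly-HSCs (18 months of age, CD150-low, called lymphoid-biased), young Ly-HSCs (8 to 10 weeks, CD150-low), old My-HSCs (18 months, CD150-high, called myeloid-biased) and young My-HSCs (8 to 10 weeks, CD150-high). Each of the 4 groups had 3 libraries, from separate groups of mice, and no group carried a treatment or an engineered allele. Old mice came from the colony of the National Institute on Aging and young mice from Jackson Laboratory or a university colony, so age and supplier cannot be told apart. Values are FPKM, fragments scaled to transcript length and to the mapped fragments of a library, as deposited.

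p53 is a transcription factor that is held low by Mdm2, a ubiquitin ligase that marks it for degradation, and by Mdm4, a relative of Mdm2 that blocks its activity. DNA damage and other stresses stop this inhibition, mostly at the level of the protein, and p53 then switches on genes that stop the cell cycle, repair DNA or start apoptosis. Mdm2 is itself a target, which closes a feedback loop. In HSCs, p53 is known to keep cells quiescent and to set how they respond to DNA damage.

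A p53 response element is made of half-sites, and the sequences below show where the consensus p53 half-site stands in the promoters of these genes. RefSeq promoter windows (build GRCm38.p6), from 250 bases before to 50 bases after an annotated start, were at hand for 8 of the 10 genes, in 11 windows. The genes without one are Trp53inp1 and Pmaip1. Because the motif is its own reverse complement, a match on one strand is a match on the other, and no other motif was searched. A match was found for 5 of the 8 genes (62.5%), against 9.55% of all 27025 genes with a window. Each of these 5 genes had 1 match, so no window of the 8 genes held more than 1 half-site. Sequence outside the windows was not searched. Each line shows 40 bases in the direction of the gene, with the half-site in capitals.
Trp53: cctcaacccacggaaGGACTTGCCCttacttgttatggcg
Mdm2: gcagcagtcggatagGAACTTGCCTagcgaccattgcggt
Bax: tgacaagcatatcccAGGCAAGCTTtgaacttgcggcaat
Ccng1: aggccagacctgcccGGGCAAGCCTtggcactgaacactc
Gadd45a: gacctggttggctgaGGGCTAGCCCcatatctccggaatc
The windows lie at chr11:69580269-69580308 on the plus strand for Trp53, and on the minus strand at chr10:117710920-117710959 for Mdm2, chr7:45467075-45467114 for Bax, chr11:40755447-40755486 for Ccng1 and chr6:67037423-67037462 for Gadd45a. The half-sites of Mdm2, Bax and Ccng1 begin 186, 201 and 185 bases before the start, and those of Trp53 and Gadd45a 75 and 40 bases before it. The windows of Mdm4, Bbc3 and Sesn2 held no match, which says only that these letters are not in these windows. Among 35 other p53 target genes with a window, 11 (31.4%) held a match. A match describes the letters and does not show binding.

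**Figure D1:**
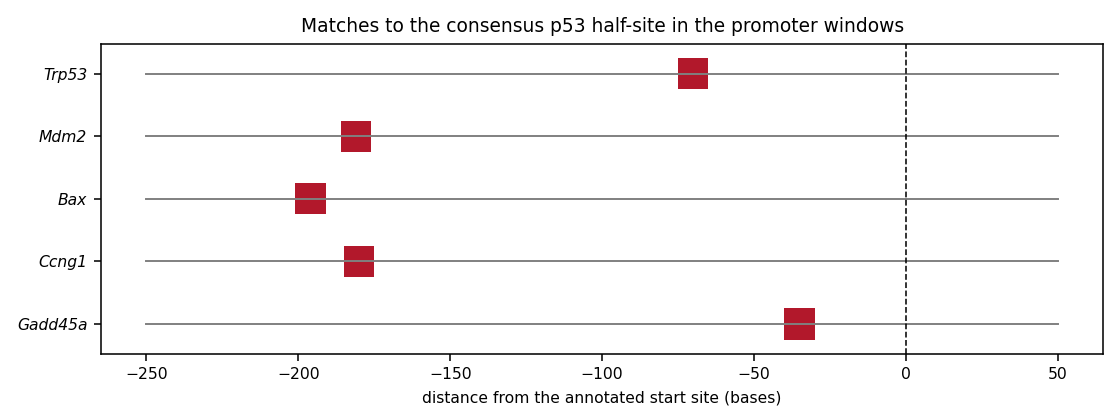
Positions of the consensus p53 half-site in the RefSeq promoter windows of Trp53, Mdm2, Bax, Ccng1 and Gadd45a. The x axis is the distance in bases from the annotated start (dashed line), grey lines are the windows of 300 bases and red boxes the half-sites; 3 lie between 201 and 176 bases before the start and the other 2 within 75 bases of it.

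Slamf1, which encodes the sorting antigen CD150, had 15.0053 to 35.3 FPKM in My-HSC libraries and 1.39 to 8.33 FPKM in Ly-HSC libraries, as the labels say. Of the HSC markers, Mecom, Hlf and Procr had at least 30.99 FPKM in every library, whereas others varied. Ly6a, which encodes the sorting antigen Sca-1, had 11.7 to 52.2 FPKM in old Ly-HSCs and 1.24 to 3.83 FPKM in young Ly-HSCs. Flt3, which encodes CD135, against which the cells were sorted, had 8.69 to 15.06 FPKM in old Ly-HSCs and 2.58, 21.99 and 21.9 FPKM in young Ly-HSCs. Hoxb5 was listed at 0 in 2 young Ly-HSC libraries. The summed FPKM of all 11 measured HSC markers was 406.7 to 464.96 in old and 465.07 to 581.4 in young Ly-HSCs. These ranges nearly met. That sum counts Cd34, and it counts Flt3 and Cd48, against whose antigens the cells were sorted. Cd34 had 33.97 to 42.6 FPKM in old and 40.3 to 61.2 FPKM in young Ly-HSCs. Library totals are unknown, since FPKM removes them, and the share of genes listed at exactly 0 ran from 12.1% to 34.1%, highest in young Ly-HSC library 1. That library had the lowest value of all 12 for 5 of the 9 tested genes described here (Trp53, Mdm2, Mdm4, Bbc3 and Ccng1). The 2 old libraries numbered 1 stood apart by markers of other blood cells. Summed FPKM of the granulocyte genes Itgam and Mmp9 (2 of 12 listed markers had a row) was 227.4 in old Ly-HSC library 1 and 193.8 in old My-HSC library 1, against 19.8 to 28.9 in the other old libraries and 0 to 32.97 in young libraries. Summed FPKM of 5 of 9 erythroid markers was 74.4 and 53.95 in the same 2 libraries, against 2.93 to 16.8 in the other old libraries and 0.0757 to 24.4 in young libraries. None of these 7 markers was listed at 0 in the 2 libraries, nor in old Ly-HSC libraries 2 and 3. Young My-HSC library 1 listed both granulocyte genes at 0. Sums of monocyte, B lineage, and T and NK cell markers overlapped between the ages in both subsets. The monocyte sum was 48.98 and 39.2 FPKM in the same 2 old libraries, against 11.3 to 27.3 in the other old libraries and 0.047 to 46.2 in young ones. Within it, Ly6c2 had 34.6 and 18.3 FPKM in those 2, against 0.41 to 2.53 in the other old libraries. Cd68 was instead highest in young My-HSC library 2, at 42.8 FPKM.

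By level, the genes fell into 3 tiers. The median FPKM over all 12 libraries was 35.9 for Mdm2, 32.2 for Mdm4, 28.7 for Trp53 and 26.6 for Ccng1, so that 83.3% to 89.3% of the genes in the table were lower. Next came Gadd45a at 10.9, Trp53inp1 at 8.43, Bax at 7.99, Bbc3 at 7.02 and Sesn2 at 5.64 FPKM. Pmaip1 came last at 0.021 FPKM. Neighbours in this order overlapped across the 12 libraries, and the order within each of the first 2 tiers was not resolved beyond that spread.

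**Figure D2:**
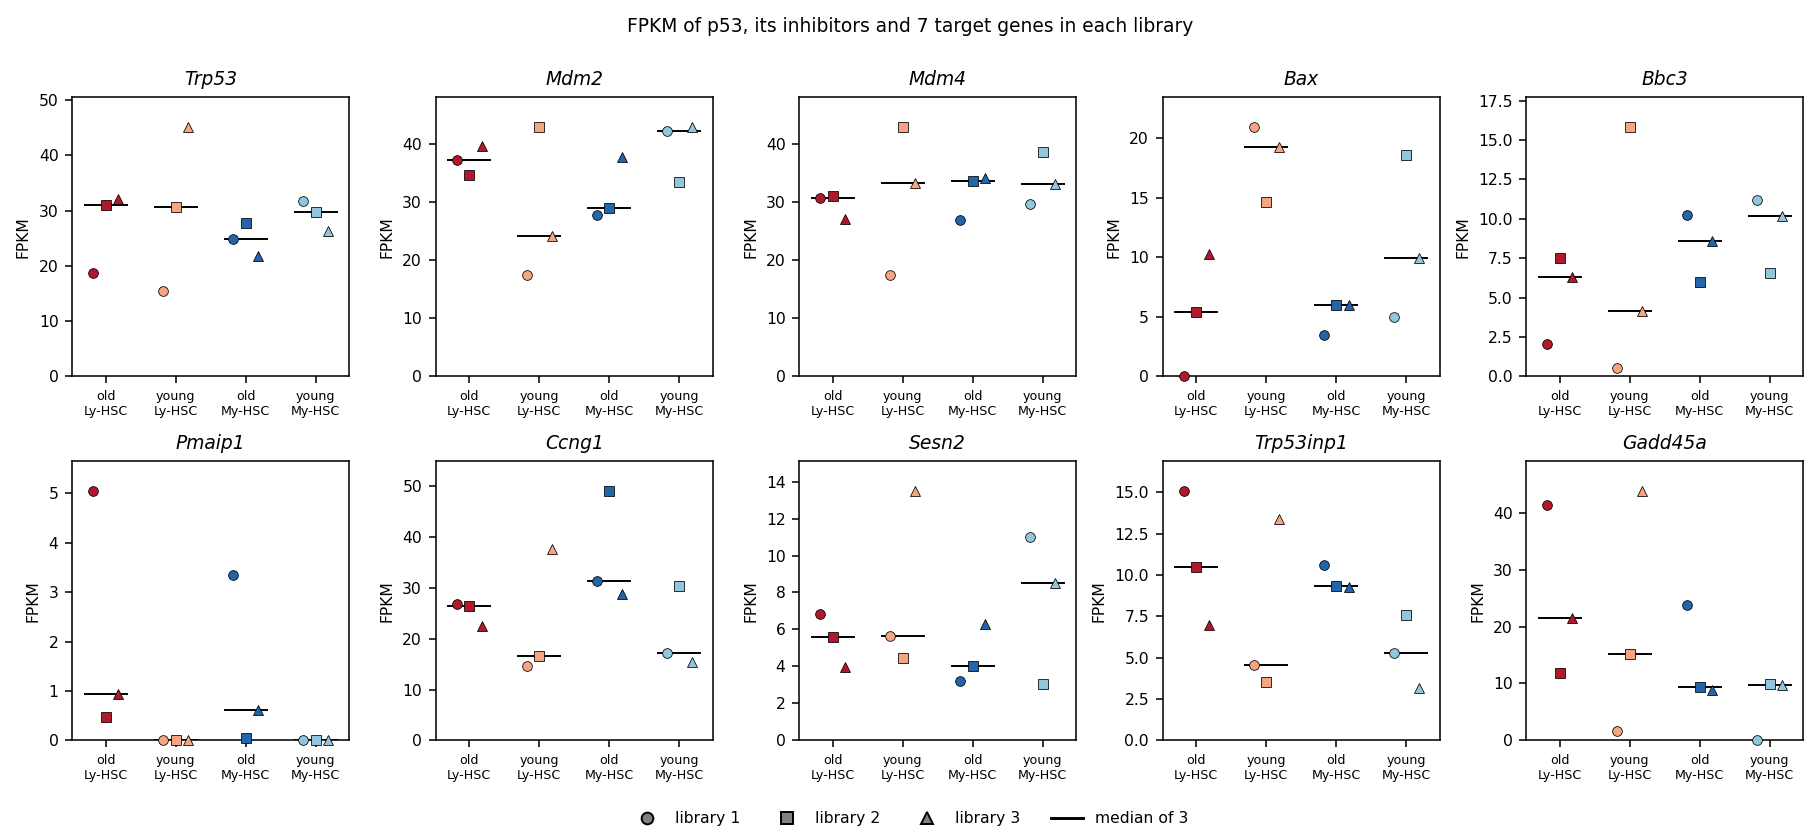
FPKM of the 10 genes in each of the 12 libraries (1 panel per gene, linear y axis from 0), by group along the x axis; symbols mark the library number and the bar the median of 3. Bax is lower in all 3 old Ly-HSC libraries (0 to 10.3) than in young ones (14.6 to 20.9), and Pmaip1 is above 0 in old libraries alone.

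No difference in any of the 9 genes that could be tested passed the threshold, in either subset or between subsets. Differences below are of mean log2(FPKM + 1), old minus young or My-HSC minus Ly-HSC, with their standard error, and n = 3 libraries per group. They come from 1 limma model over the 10900 genes that reached 1 FPKM in at least 3 libraries, with Benjamini-Hochberg adjustment and a call at an adjusted p under 0.05; this scale understates the change of low genes. Of the 9 genes, 0 were called between old and young Ly-HSCs, where 0.349% of all genes were called. In My-HSCs 0 of 9 were called, beside 0.211% of all genes, and 0 of 9 for the mean age effect of both subsets, beside 0.844%. At an unadjusted limma p under 0.05 there was 1 gene in each of these comparisons: Bax in Ly-HSCs, Ccng1 in My-HSCs and Bax for the mean effect. That is 11.1% of the 9, against 13.3%, 7.21% and 14.7% of all tested genes, so the share lay near or below that of all genes in Ly-HSCs and for the mean effect, and the My-HSC count rests on 1 gene. In bulk RNA such as this, fewer cells of a type and less RNA per cell cannot be told apart.

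The core of the pathway, Trp53 and its inhibitors, showed no called difference with age. Trp53 had 18.8, 30.96 and 32.05 FPKM in old Ly-HSCs, against 15.5, 30.7 and 45.1 FPKM in young Ly-HSCs. It had 24.8, 27.7 and 21.7 FPKM in old My-HSCs, against 31.8, 29.8 and 26.3 FPKM in young My-HSCs. The groups overlapped in both subsets, and the lowest 2 values belonged to the Ly-HSC libraries numbered 1. The age difference of Trp53 was -0.068 ± 0.34 in Ly-HSCs (limma with Benjamini-Hochberg adjustment, adjusted p = 0.949) and -0.24 ± 0.34 in My-HSCs (adjusted p = 0.966). For the mean of both subsets its 95% interval ran from -0.67 to 0.37. In Ly-HSCs the sign of this small difference changed with single libraries, at -0.47 without young Ly-HSC library 1 and 0.27 without young Ly-HSC library 3.

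Mdm2, the ligase, had 37.2, 34.6 and 39.5 FPKM in old Ly-HSCs, against 17.5, 42.9 and 24.2 FPKM in young Ly-HSCs. Old My-HSCs had 27.7, 28.9 and 37.7 FPKM, against 42.1, 33.4 and 42.8 FPKM in young My-HSCs. The point estimates thus had opposite signs, higher with age in Ly-HSCs and lower in My-HSCs, and the groups overlapped in both. The differences were 0.48 ± 0.29 in Ly-HSCs (limma, Benjamini-Hochberg adjusted p = 0.483) and -0.32 ± 0.29 in My-HSCs (adjusted p = 0.938). The difference between these age effects, tested as an interaction, was -0.80 ± 0.41 (limma adjusted p = 0.874). Of the 9 genes 0 were called for the interaction, as were 0% of all genes, with 0 of 9 at an unadjusted p under 0.05, against 5.65% of all tested genes. Without young Ly-HSC library 1, in which Mdm2 was lowest, the Ly-HSC difference was 0.20 and the interaction -0.52.

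Mdm4, the second inhibitor, had the narrowest span of group means among the 9 genes, 0.19 on the log2 scale. It had 30.7, 31.1 and 27.1 FPKM in old Ly-HSCs, against 17.6, 42.99 and 33.4 FPKM in young Ly-HSCs. Old My-HSCs had 26.9, 33.8 and 34.1 FPKM, against 29.8, 38.6 and 33.2 FPKM in young My-HSCs. All groups overlapped, and the young Ly-HSC libraries were the most scattered. The age difference of Mdm4 was 0.0091 ± 0.29 in Ly-HSCs and -0.098 ± 0.29 in My-HSCs (limma, Benjamini-Hochberg adjusted p = 0.994 and 0.990). Its sign in Ly-HSCs changed with the scaling of the libraries (-0.066 with median-of-ratios factors and -0.0099 as TPM).

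Among the apoptosis genes, Bax was lower in old Ly-HSCs and Pmaip1 was detected in old libraries alone. Bax encodes the protein that opens pores in the outer mitochondrial membrane when apoptosis starts. It was listed at 0, 5.40 and 10.3 FPKM in old Ly-HSC libraries 1, 2 and 3, against 20.9, 14.6 and 19.3 FPKM in young Ly-HSCs. All 3 old values lay below all 3 young values, as for 4.5% of all tested genes in that direction. In old My-HSCs Bax had 3.45, 6.04 and 6.01 FPKM, against 4.98, 18.6 and 9.94 FPKM in young My-HSCs. These groups overlapped, through the low value of young My-HSC library 1.

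The Bax difference was -2.20 ± 0.74 in Ly-HSCs, with a 95% interval of -3.80 to -0.60 (limma adjusted p = 0.231). In My-HSCs it was -0.85 ± 0.74 (limma adjusted p = 0.936), and the mean of both was -1.52 ± 0.52 (limma adjusted p = 0.203). The interaction, My-HSC age effect less Ly-HSC age effect, was 1.35 ± 1.05 (limma adjusted p = 0.937), so a difference between the subsets was not shown. The My-HSC value was -1.28 without young My-HSC library 1 and -0.42 without young My-HSC library 2, and the interaction was 0.32 when old Ly-HSC library 1 was left out and 2.07 when library 3 of that group was. Old Ly-HSC library 1, the one listed at 0, also had the highest granulocyte and erythroid marker sums. Without it the Ly-HSC difference was -1.17, and without both old libraries numbered 1 the mean of both subsets was -0.90 (limma adjusted p = 0.461). Old Ly-HSC library 1 listed 22.3% of all genes at 0. Bax shares its position with the protein-coding gene Gm45808 on the same strand, so its value is uncertain. Summed FPKM of 20 mitosis and S phase genes also differed without overlap between Ly-HSCs of the 2 ages, at 406.4 to 656.1 in old and 241.3 to 380.1 in young libraries, and the part of this in the Bax values was not tested.

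**Figure D3:**
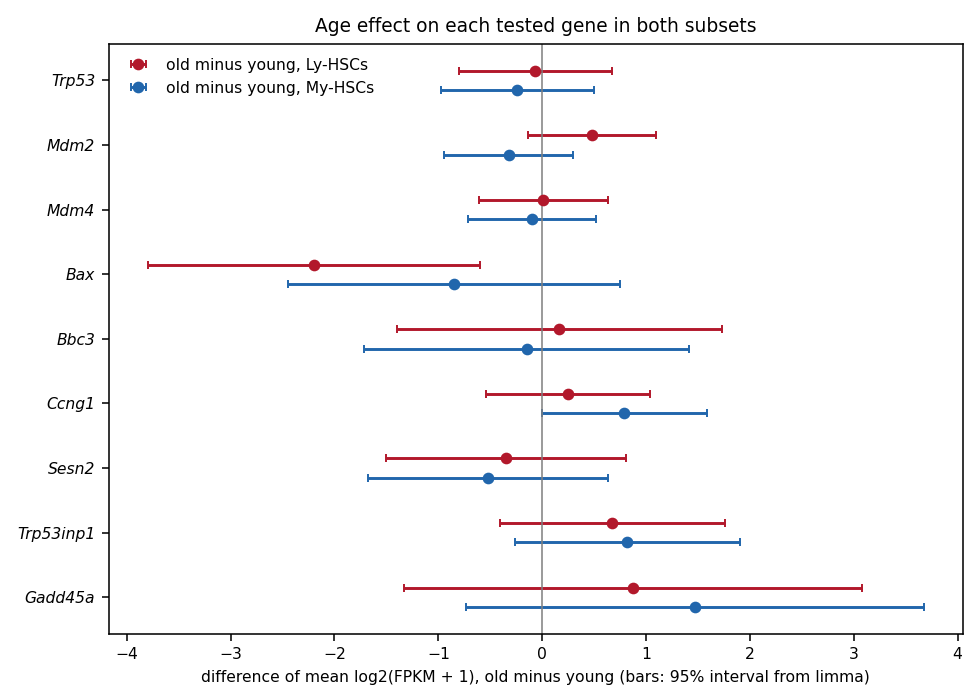
Age effect on each of the 9 tested genes, as the difference of mean log2(FPKM + 1), old minus young, in Ly-HSCs (red) and My-HSCs (blue), with 95% limma intervals. The intervals that lie wholly on one side of 0 are those of Bax in Ly-HSCs (-3.80 to -0.60) and, barely, of Ccng1 in My-HSCs (0.0011 to 1.58), and neither passed adjustment.

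Bbc3, which encodes the BH3-only protein Puma, a direct trigger of Bax, had 2.04, 7.49 and 6.29 FPKM in old Ly-HSCs, against 0.526, 15.8 and 4.18 FPKM in young Ly-HSCs. It had 10.2, 5.97 and 8.58 FPKM in old My-HSCs, against 11.2, 6.54 and 10.2 FPKM in young My-HSCs. The groups overlapped in both subsets, and both Ly-HSC libraries numbered 1 were low. The differences were 0.17 ± 0.73 in Ly-HSCs and -0.15 ± 0.73 in My-HSCs (limma, Benjamini-Hochberg adjusted p = 0.940 and 0.995). The Ly-HSC value was -0.70 without young Ly-HSC library 1, 1.03 without young Ly-HSC library 2 and -0.55 after quantile normalization, so it has no stable sign.

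Pmaip1, which encodes the BH3-only protein Noxa, was listed at 5.05, 0.482 and 0.947 FPKM in old Ly-HSCs, against 0, 0 and 0 in young Ly-HSCs. It was listed at 3.34, 0.042 and 0.626 FPKM in old My-HSCs, against 0, 0 and 0 in young My-HSCs. All 6 old libraries were above 0 and all 6 young libraries at 0, a pattern shared by 17 of the 14143 genes (0.12%), while 0 genes had the converse. The highest 2 values were those of the old libraries numbered 1, which also had the highest granulocyte and erythroid marker sums, and the part of such cells was not tested. The other 4 old values were under 1 FPKM, and young libraries listed more genes at 0 (19.3% to 34.1%) than old ones (12.1% to 22.3%).

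Pmaip1 reached 1 FPKM in fewer than 3 libraries and was therefore not among the tested genes. Without the filter on low values its mean age effect was 1.17 ± 0.40 (limma adjusted p = 0.230). As TPM, where it passed the filter, the effect was 2.47 ± 0.67 (limma adjusted p = 0.115).

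**Figure D4:**
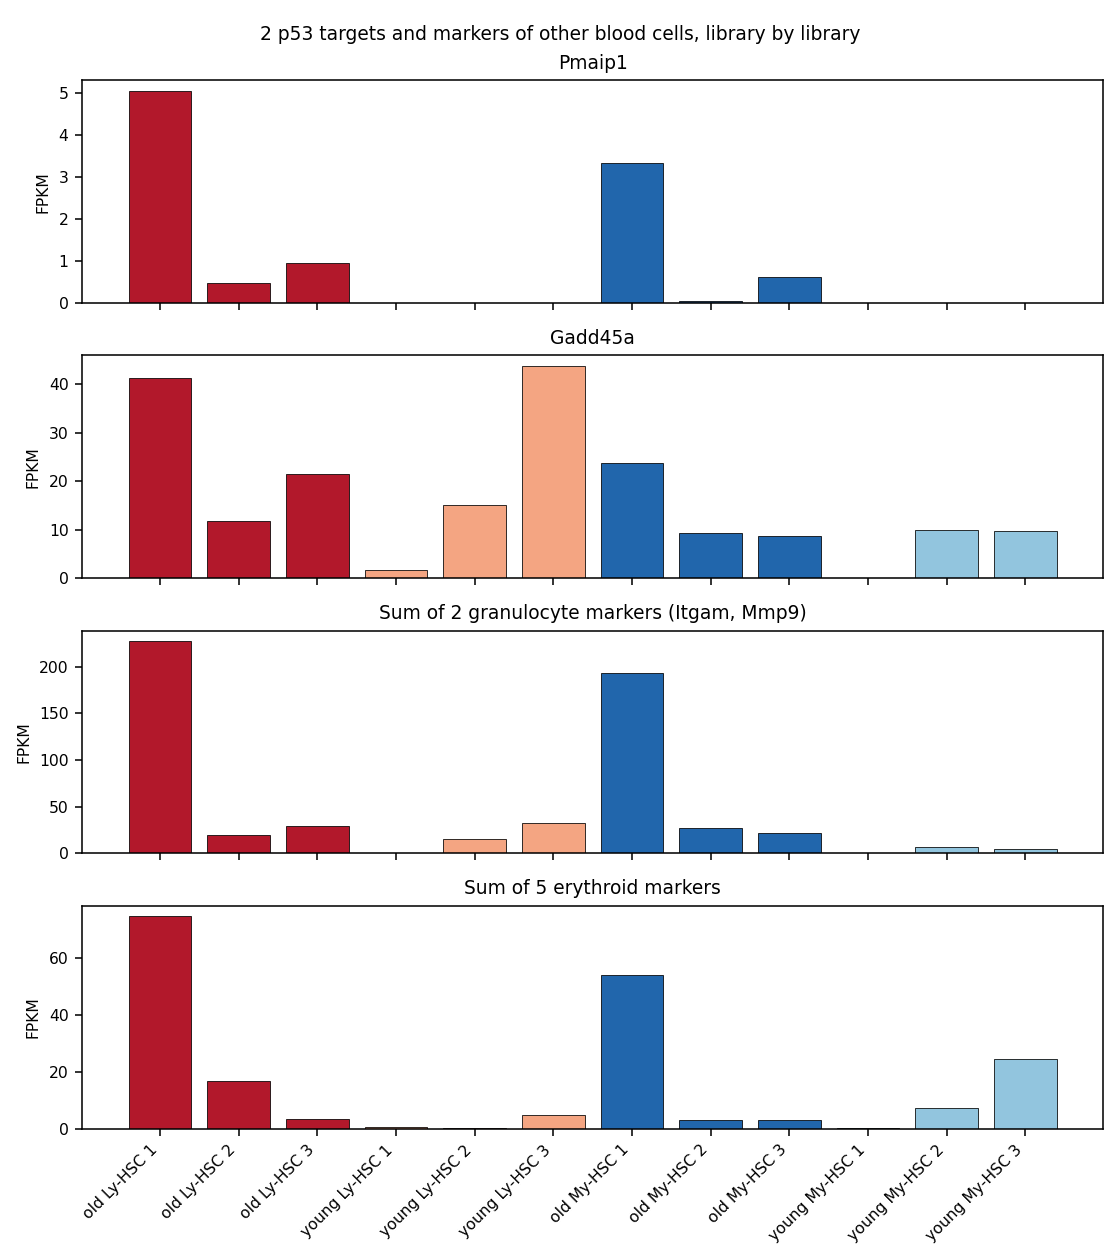
Pmaip1 and Gadd45a beside the summed granulocyte markers (Itgam and Mmp9) and 5 erythroid markers, in FPKM, 1 bar per library, with linear y axes from 0. Old Ly-HSC library 1 and old My-HSC library 1 are highest for Pmaip1 (5.05 and 3.34) and for both marker sums, whereas the highest Gadd45a value is in young Ly-HSC library 3 (43.8).

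The 4 cell-cycle and stress genes showed no called difference, with Trp53inp1 and Ccng1 nearer to one than the others. Ccng1 encodes cyclin G1, a p53 target that feeds back on Mdm2. It had 26.8, 26.3 and 22.5 FPKM in old Ly-HSCs, against 14.6, 16.7 and 37.6 FPKM in young Ly-HSCs. Old My-HSCs had 31.3, 49.02 and 28.8 FPKM, against 17.1, 30.4 and 15.3 FPKM in young My-HSCs. Young Ly-HSC library 3 and young My-HSC library 2 were the high ones among the young, and through them the groups overlapped. The differences were 0.25 ± 0.37 in Ly-HSCs (limma, Benjamini-Hochberg adjusted p = 0.806) and 0.79 ± 0.37 in My-HSCs (adjusted p = 0.691). Without the 4 libraries numbered 1 these were -0.041 and 0.77.

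Trp53inp1 encodes a nuclear stress protein that supports p53-dependent cell-cycle arrest and apoptosis. It had 15.07, 10.5 and 6.97 FPKM in old Ly-HSCs, against 4.55, 3.50 and 13.4 FPKM in young Ly-HSCs. It had 10.6, 9.33 and 9.26 FPKM in old My-HSCs, against 5.26, 7.59 and 3.15 FPKM in young My-HSCs. The My-HSC groups did not overlap, as for 11.3% of all tested genes in that direction, and the Ly-HSC groups overlapped through young Ly-HSC library 3. The difference was 0.68 ± 0.50 in Ly-HSCs (limma, Benjamini-Hochberg adjusted p = 0.578) and 0.82 ± 0.50 in My-HSCs (adjusted p = 0.844). Their mean was 0.75 ± 0.35 (adjusted p = 0.349), and it stayed between 0.58 and 1.00 when any 1 library was left out. The Ly-HSC difference moved more, at 0.35 without young Ly-HSC library 2, 0.43 without old Ly-HSC library 1 and 1.19 without young Ly-HSC library 3, and the My-HSC difference was 0.55 without young My-HSC library 3. In My-HSCs the granulocyte sum likewise did not overlap between the ages (21.5 to 193.8 FPKM in old and 0 to 6.73 FPKM in young libraries), and its part in this result was not tested.

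Sesn2 encodes sestrin 2, which lowers mTORC1 signalling under stress. It had 6.84, 5.61 and 3.96 FPKM in old Ly-HSCs, against 5.67, 4.47 and 13.5 FPKM in young Ly-HSCs. In the My-HSC subset, values were 3.22, 4.03 and 6.30 FPKM in old, against 11.005, 3.05 and 8.497 FPKM in young libraries. Both pairs of groups overlapped, with the high values in young libraries. The differences were -0.35 ± 0.54 and -0.52 ± 0.54 in Ly-HSCs and My-HSCs (limma, Benjamini-Hochberg adjusted p = 0.816 and 0.944), and leaving out young Ly-HSC library 2 gave -0.63 in Ly-HSCs, and leaving out library 3 gave 0.073. The My-HSC value was -0.21 without young My-HSC library 1 and -0.99 without young My-HSC library 2. Sesn2 overlaps Gm12981, annotated as antisense, on the same strand in the GENCODE M21 annotation.

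Gadd45a, a sensor of DNA damage that acts on p38 and JNK signalling and on the cell cycle, had the widest span of group means among the 9 tested genes, 2.23 on the log2 scale, next to 2.20 for Bax. It had 41.3, 11.85 and 21.4 FPKM in old Ly-HSCs, against 1.73, 15.1 and 43.8 FPKM in young Ly-HSCs. In My-HSCs it had 23.8, 9.37 and 8.79 FPKM in old libraries, and 0, 9.87 and 9.81 FPKM were listed in young libraries. The libraries numbered 1 were the highest of their group in both old groups and the lowest in both young groups, and the groups overlapped in both subsets. Its log2 values had an SD of 2.04 among young Ly-HSC libraries and 1.99 among young My-HSC libraries, above that of 95.7% and 99.3% of tested genes.

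The Gadd45a differences were 0.88 ± 1.02 in Ly-HSCs and 1.47 ± 1.02 in My-HSCs (limma, Benjamini-Hochberg adjusted p = 0.747 and 0.896). Without the 4 libraries numbered 1 they turned to -0.66 and -0.11, and the mean of both turned to -0.38, against 1.17 ± 0.72 with all libraries. The direction of Gadd45a with age therefore rests on those libraries. An opposite-strand transcript, E230016M11Rik, overlaps the gene, and the sources used here do not say whether counting used strand.

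Between the subsets, 0 of the 9 genes were called in young cells, where 0.119% of all genes were called, and 0 of 9 in old cells, where 0.0275% were. At an unadjusted limma p under 0.05 there were 0 of the 9 in either comparison, against 13.8% of all tested genes in young cells and 4.03% in old cells. The old-cell values treat the old libraries as independent, although same-numbered ones correlated at 0.210 to 0.256. A limma fit of old libraries alone with a block for library number had 1271 of 10900 genes at an unadjusted p under 0.05, against 439 without it. That fit called 3 genes. The lowest adjusted p of the 9 genes between old subsets, over all alternatives, was 0.336 (limma). The nearest in young cells was Mdm2, higher in My-HSCs by 0.56 ± 0.29 (limma adjusted p = 0.412), with 42.1, 33.4 and 42.8 FPKM in My-HSCs and 17.5, 42.9 and 24.2 FPKM in Ly-HSCs. That value was 0.27 without young Ly-HSC library 1. In old cells Ccng1 did not overlap, with 28.8 to 49.02 FPKM in My-HSCs and 22.5 to 26.8 FPKM in Ly-HSCs, as for 9.19% of all tested genes in that direction. Its difference was 0.48 ± 0.37 (limma adjusted p = 1.000).

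The wider pathway was described by gene lists, each set beside all tested genes, which had a median mean age effect of 0.13, positive in 62.7%, with 82 called higher and 10 lower. Of 38 tested p53 targets outside the 10 genes, 23 (60.5%) had a positive mean age effect, with a median of 0.14, and 1 was called. That gene was Plk2, a stress-induced polo-like kinase. Plk2 had 98.5, 43.1 and 62.8 FPKM in old Ly-HSCs, against 5.61, 21.8 and 26.4 FPKM in young Ly-HSCs. It had 175.5, 133.7 and 146.4 FPKM in old My-HSCs, against 54.1, 30.2 and 59.6 FPKM in young My-HSCs. Old libraries were above young ones in both subsets without overlap, as for 11.5% of all tested genes in Ly-HSCs and 11.3% in My-HSCs.

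The mean age effect of Plk2 was 1.86 ± 0.33 (limma, Benjamini-Hochberg adjusted p = 0.0179), higher in 6 of 6 old libraries within their subset. That p-value treats the 6 old libraries as independent. Same-numbered old libraries of the 2 subsets correlated at 0.210 to 0.256, so these 6 are not fully independent. Taken singly, the subsets had 2.03 ± 0.47 in Ly-HSCs and 1.69 ± 0.47 in My-HSCs (adjusted p = 0.102 and 0.311). Of 13 listed immediate early genes, which respond fast to stimulation, 4 had a row. All 3 tested (Junb, Atf3, and Btg2, which is also a listed p53 target) had a positive mean age effect. In Ly-HSCs alone 2 of the 3 were positive. Atf3 had 13.9, 6.22 and 12.4 FPKM in old Ly-HSCs against 2.75, 44.9 and 21.6 FPKM in young Ly-HSCs. Junb was called at 1.06 ± 0.19 (limma adjusted p = 0.0179), with 210.2 to 266.8 FPKM in old Ly-HSCs against 95.6 to 193.1 FPKM in young Ly-HSCs, and 315.3 to 339.6 FPKM in old My-HSCs against 99.3 to 198.7 FPKM in young My-HSCs. The mitosis and S phase sum in Ly-HSCs and the granulocyte sum in My-HSCs also differed with age without overlap, as given above, and the part of these signals in the Plk2 values was not tested. The call was lost without old Ly-HSC library 3, old My-HSC library 1, old My-HSC library 3 or young My-HSC library 2 (adjusted p = 0.0506, 0.0553, 0.0513 and 0.0505), with differences of 1.71 to 1.87. It was also lost without both old libraries numbered 1, at 1.65 (adjusted p = 0.124), and without the 4 libraries numbered 1, at 1.39 (adjusted p = 0.0593). The next targets by p were Bcl6, a transcriptional repressor, at 1.31 ± 0.39 and Btg2, an antiproliferative gene, at 0.98 ± 0.29 (limma adjusted p = 0.148 for both). Cdkn1a, which encodes the cell-cycle inhibitor p21 and was singled out after its values were seen, had 4.20, 2.62 and 10.8 FPKM in old Ly-HSCs against 0, 0.361 and 0 FPKM in young Ly-HSCs. My-HSCs had 25.2, 2.95 and 20.5 FPKM in old and 0.0346, 5.22 and 11.1 FPKM in young libraries, and its mean age effect was 2.03 ± 0.64 (limma adjusted p = 0.160).

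The list of kinases and modifiers upstream of p53, the Bcl2 family list and the caspase and apoptosome list held no called gene in any of the 6 comparisons. Of 15 tested kinases and modifiers that act on p53, 6 (40.0%) had a positive mean age effect, with a median of -0.069. The smallest p there belonged to the acetyltransferase Crebbp (-0.31 ± 0.13, limma adjusted p = 0.302), the checkpoint kinase Chek1 (-0.69 ± 0.49, adjusted p = 0.558) and the DNA damage kinase Atm (-0.19 ± 0.16, adjusted p = 0.640). Of 10 tested Bcl2 family genes outside the 10 described here, 6 (60.0%) were positive, with a median of 0.034. Bak1, the pore-forming relative of Bax, had a mean age effect of 0.68 ± 0.24 (limma adjusted p = 0.214), opposite in sign to that of Bax. The BH3-only genes Bcl2l11 and Bmf had 1.05 ± 0.42 and -0.45 ± 0.36 (limma adjusted p = 0.273 and 0.612). Of 14 caspase and apoptosome genes, 11 (78.6%) were positive, with a median of 0.30, beside the 62.7% of all tested genes. The smallest p in this list belonged to the executioner caspase gene Casp6, which was negative at -0.86 ± 0.38 (limma adjusted p = 0.315). Next came Apaf1, the scaffold of the apoptosome and also a listed p53 target, at 0.64 ± 0.30 (limma adjusted p = 0.350). Xiap, a caspase inhibitor, was at 0.46 ± 0.23 (limma adjusted p = 0.366). The list also holds the inhibitor of apoptosis genes Birc2, Birc3 and Birc5. With Xiap, the 78.6% therefore mixes genes of opposite function and gives no direction for apoptosis.

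Among relatives of the 10 genes, 6 of 8 listed had a row and all 6 were tested. Gadd45b, a paralog of Gadd45a that responds to NF-kB as well as to stress, was called in 2 comparisons. It was listed at 14.95, 7.17 and 18.1 FPKM in old Ly-HSCs against 0, 1.83 and 0 FPKM in young Ly-HSCs. In My-HSCs it had 22.04, 11.8 and 16.9 FPKM in old and 13.1, 17.1 and 16.6 FPKM in young libraries. The 3 lowest values were those of young Ly-HSCs, 2 of them listed at 0, in libraries that listed 25.04% to 34.1% of all genes at 0, against 12.1% to 26.1% in the other libraries.

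In Ly-HSCs the difference of Gadd45b was 3.26 ± 0.51 (limma, Benjamini-Hochberg adjusted p = 0.0161), higher in 3 of 3 old libraries. In My-HSCs it was 0.074 ± 0.51 (adjusted p = 0.995). Young My-HSCs exceeded young Ly-HSCs by 3.55 ± 0.51 (limma adjusted p = 0.0236). The interaction was -3.18 ± 0.71 (limma adjusted p = 0.682), which did not pass. The age call in Ly-HSCs was lost without old Ly-HSC library 1 or 3 (3.14 and 3.01, limma adjusted p = 0.105 and 0.119). The call between young subsets was lost on leaving out any 1 young My-HSC library (3.48 to 3.66), any 1 old My-HSC library or old Ly-HSC library 3 (3.55), with limma adjusted p of 0.0537 to 0.115. Without both old libraries numbered 1 neither held (limma adjusted p = 0.177 and 0.0813), nor did either hold in a fit of the 2 groups alone (0.316 and 0.437).

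Gadd45g, the other paralog, had 44.5, 12.7 and 7.27 FPKM in old Ly-HSCs against 0.129, 0.326 and 28.3 FPKM in young Ly-HSCs. In My-HSCs it had 76.4, 27.5 and 18.9 FPKM in old and 1.13, 3.37 and 7.10 FPKM in young libraries. The My-HSC groups did not overlap, as for 11.3% of all tested genes in that direction, and the highest 2 values were in the old libraries numbered 1. Its mean age effect was 2.68 ± 0.77 (limma adjusted p = 0.132). The remaining relatives had mean age effects closer to 0, with Sesn1 at -0.14 ± 0.25, Sesn3 at 0.13 ± 0.21, Trp53inp2 at 0.59 ± 0.54 and Ccng2 at -0.49 ± 0.35 (limma adjusted p = 0.858, 0.833, 0.657 and 0.558). Over the 12 libraries Sesn1 ran from 29.9 to 76.4 FPKM, Sesn3 from 9.74 to 16.5, Ccng2 from 3.79 to 22.3 and Trp53inp2 from 0 to 11.7.

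**Figure D5:**
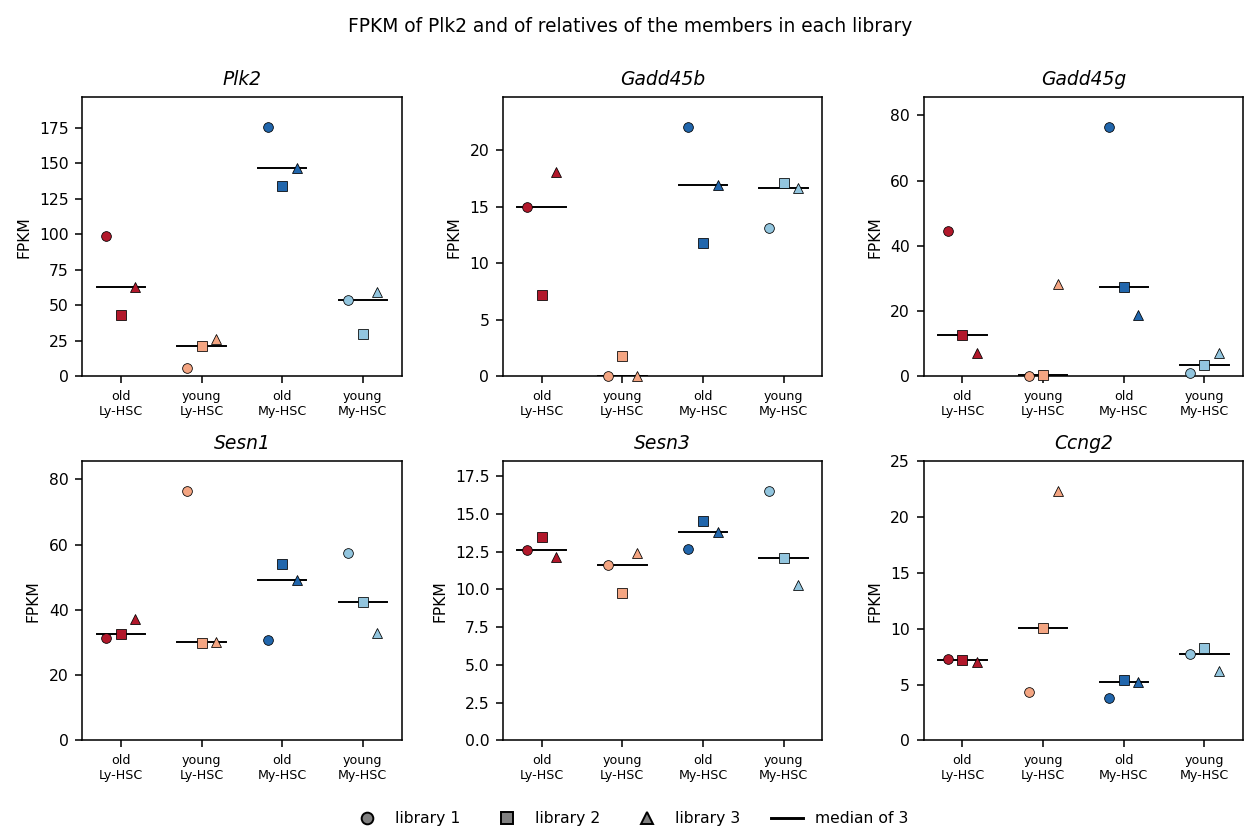
FPKM of Plk2 and of the relatives of the described genes in each library, by group along the x axis (linear y axes from 0); symbols mark the library number and the bar the median of 3. Plk2 is higher in old than in young libraries of both subsets, and Gadd45b is lowest in young Ly-HSCs (0 to 1.83).

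The genes whose pattern over the 12 libraries was most like that of Trp53 were sought by the root mean square difference of log2(FPKM + 1), each gene centred on its own mean. They were Calcoco1 at 0.18, Tgfbrap1 at 0.18 and Eif4enif1 at 0.18, against a median of 0.68 over all tested genes. For Gadd45a, the gene with the widest span of group means (2.23), they were Kifc5b at 0.57, Dpp7 at 0.66 and Tbcb at 0.70, against a median of 1.56. Kifc5b and Dpp7 were listed at 0 in young Ly-HSC library 1 and young My-HSC library 1, where Gadd45a was listed at 1.73 and 0 FPKM. These are descriptions over 12 libraries, in which all genes share the depth of their library, with no test.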

How the data were processed

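FPKM per gene and library were normalized by the authors, per the labels, and used as deposited. Tools named without a role are bcl2fastq 2.17, STAR and DESeq2, with build GRCm38 (mm10), per the submitters' processing notes. Counting rules and read totals are not given in the sources used. Direct-Zol extraction and a KAPA stranded mRNA-seq kit were used, per the labels' protocols. The age of young mice is 8 to 10 weeks in the labels, while the protocol has a slightly wider range.

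Values were analysed as log2(FPKM + 1), for the 10900 of 14143 genes with at least 1 FPKM in 3 or more libraries. With limma 3.58.1 (R 4.3.3), 1 mean per group was fitted over all 12 libraries, with an intensity trend, 8 residual and 5.11 prior degrees of freedom. For each of 6 contrasts, two-sided p-values were adjusted by Benjamini-Hochberg over all tested genes and called at 0.05. The procedure was tested on simulated data. Replicates of a group are separate groups of mice, and p-values measure the spread between those.

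The described genes and the gene lists were chosen with earlier results of these data known. All 10 genes and their measured relatives are named; of each other pathway list, any called gene and the 3 with the smallest p for the mean age effect; and the 3 genes most like Trp53 and most like the gene with the widest span of group means. Group numbering was checked for pairing. Deviations of same-numbered old My-HSC and old Ly-HSC libraries correlated at 0.256, 0.233 and 0.210, so these numbers pair the old subsets, whereas the p-values of contrasts over both subsets treat the 6 old libraries as independent; young pairs (0.0023 to 0.0482) and old with young pairs (-0.0386 to 0.0098) do not. Positions and overlaps come from GENCODE M21, promoter sequences from RefSeq (GRCm38.p6). Alternatives were other pseudocounts, filters, scalings (median-of-ratios, quantile, TPM), 2-group fits, a replicate block and leaving out libraries.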

Additional observations from a re-analysis of the deposited data

How the results depend on the processing

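The count of called genes among the 9 tested stayed at 0 in all 6 comparisons under each alternative run, with a replicate block included; the lowest adjusted p of any of them was 0.0700 (limma, Mdm2 between young subsets). The block took the call of Gadd45b in Ly-HSCs (adjusted p = 0.0585) and between young subsets (0.0626), as did fits of 2 groups alone (0.316 and 0.437) and, between young subsets, no filter (0.0518). Fitted in My-HSC groups alone, Plk2 was called in My-HSCs (adjusted p = 0.0368, against 0.311). Plk2 in Ly-HSCs and Gadd45b for the mean effect were called without young Ly-HSC library 2 (0.0454 and 0.0128), Plk2 in Ly-HSCs without young Ly-HSC library 3 (0.0442) and Plk2 in My-HSCs without young Ly-HSC library 1 (0.0358).

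Signs of small differences turned in these cases, and the cause was not tested. For old minus young Ly-HSCs, quantile normalization gave Bbc3 -0.55, median-of-ratios factors and TPM gave Mdm4 -0.066 and -0.0099, and leaving out the 4 libraries numbered 1 gave Bbc3 -0.25, Ccng1 -0.041, Gadd45a -0.66 and Mdm4 -0.37. That setting gave Gadd45a -0.11 and Gadd45b -0.24 in My-HSCs and a mean Gadd45a effect of -0.38. Leaving out both old libraries numbered 1, a choice made after seeing the data, gave Mdm4 -0.017 and Trp53 0.17 in Ly-HSCs and Mdm4 0.0099 and Gadd45b -0.13 in My-HSCs. With 1 library left out, the ranges that crossed 0 in Ly-HSCs were -0.70 to 1.03 for Bbc3, -0.22 to 1.79 for Gadd45a, -0.35 to 0.28 for Mdm4, -0.63 to 0.073 for Sesn2 and -0.47 to 0.27 for Trp53. In My-HSCs they were -0.36 to 0.041 for Bbc3, -0.13 to 0.30 for Gadd45b and -0.18 to 0.0099 for Mdm4.

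Over the whole table the number of calls moved with the setting. The 38 calls in Ly-HSCs ranged from 0 to 46 (7 to 224 with 1 library left out) and the 23 in My-HSCs from 0 to 56 (0 to 36). The 13 between young subsets ranged from 0 to 30 (0 to 299), the 3 between old subsets from 0 to 29 (0 to 6), the 92 for the mean age effect from 38 to 131 (42 to 197) and the 0 for the interaction from 0 to 6. Quantile normalization moved the median of all genes in Ly-HSCs to 0.027, against 0.18. Read totals are unknown. The 95% interval of Gadd45a in Ly-HSCs ran from -1.33 to 3.08, beside an SD of 2.04 among young Ly-HSC libraries.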
